A study of Drosophila melanogaster with 9 samples.

Results

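The bithorax complex is the cluster of 3 Hox genes, Ubx, abd-A and Abd-B, on chromosome arm 3R of Drosophila melanogaster. It was taken as the 3 gene bodies together with the whole stretch from the low-coordinate end of Ubx to the high-coordinate end of Abd-B (3R, build dm6), a span of 315.6 kb. The members are 3 of the 13911 protein-coding genes placed on the 6 chromosome arms X, 2L, 2R, 3L, 3R and 4. The rule that picks them uses only name and position, and no measured value. The measurement was H3K27me3, trimethylation of lysine 27 on histone H3, by chromatin immunoprecipitation and sequencing of ground larvae of the third instar from stocks kept at 25 °C. There were 3 groups of 2 immunoprecipitated libraries: males labelled wild type, males of genotype roX1[ex6]roX2[9-4], which lack both noncoding roX RNAs of the male dosage compensation complex, and females labelled wild type. The sources used here give neither the strain behind the wild-type label nor the number of animals per library, and nothing says that replicates came from separate cultures, so the spread between them may be technical. Ground larvae mix body segments and tissues, so a value is an average over cells in which a Hox gene may be active and cells in which it is silent.

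Ubx, abd-A and Abd-B encode homeodomain transcription factors that give the third thoracic segment and the abdominal segments their identity, each acting in a more posterior domain than the one before it. In segments where they must stay off, Polycomb group proteins silence them. Polycomb repressive complex PRC2 writes H3K27me3, PRC1 binds it, and both are recruited through DNA elements called Polycomb response elements. Most of the complex is noncoding and regulates the 3 genes segment by segment. The 3 genes are known to be transcribed towards lower coordinates, so their low-coordinate ends are the 3′ ends. The gene table used here holds no strand.

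The lists held from 4784 to 10619 peaks per library and covered from 11.4 Mb to 17.8 Mb of the 6 arms. Read counts and hence sequencing depth are unknown, and a stretch without a peak was not detected as enriched rather than shown to be unmarked. Peaks whose −log10 q reached 3 (q is the authors' p adjusted for many tests) still covered 9986 kb and 9620 kb in the wild-type male lists, 5821 kb and 4510 kb in the knockout lists and 5855 kb and 6121 kb in the female lists. Weak peaks therefore made up more of the knockout and female lists, and the part this has in the results below was not tested. On the Y chromosome peaks summed to 301.4 kb and 235.6 kb for the wild-type male, 166.1 kb and 166.6 kb for the knockout and 25.2 kb and 30.4 kb for the female libraries. Neither deleted gene could check the genotype, since roX2 had no peak in any library and roX1 had one in female replicate 2 alone.

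Peaks covered nearly all of the complex in every group, and the number of pieces differed far more than the covered share did. Wild-type males had 98.0% and 98.3% of the span under peaks, in 2 and 3 peaks. Knockout males had 96.8% and 95.5%, in 7 and 11 peaks, and wild-type females 91.8% and 91.0%, in 15 and 19 peaks. Of the 315.6 kb, 283.1 kb (89.7%) were covered in all 6 libraries and 4.40 kb (1.39%) in none. Both measures put the groups in the same order with no overlap.

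**Figure D1:**
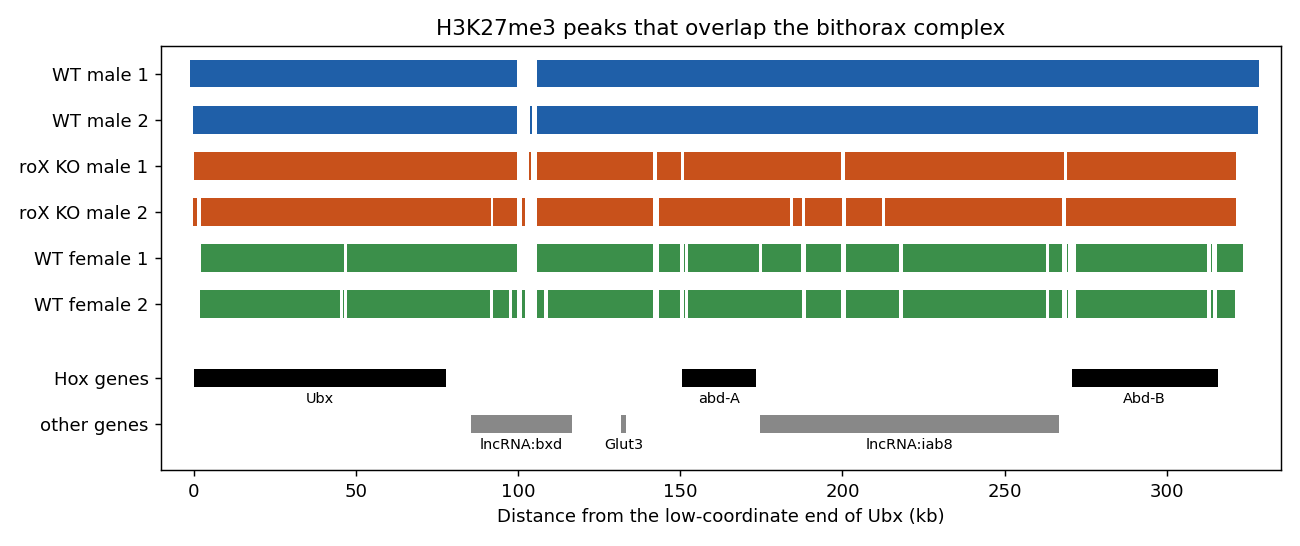
Peaks that overlap the bithorax complex in each library, as coloured bars against the distance in kb from the low-coordinate end of Ubx, with gene bodies below (black, Hox genes; grey, 3 other genes of the span). Wild-type males show 2 long blocks split near 102.8 kb, and the number of breaks is higher in the knockout male and highest in the female libraries.

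In wild-type males the complex was 2 blocks. One peak held the whole Ubx body and ran on for more than 20 kb into the interval towards abd-A, with a width of 100.7 kb in replicate 1 and 99.96 kb in replicate 2. The other held abd-A, Abd-B and everything between them, with a width of 222.3 kb in both replicates. It was the 2nd widest peak of each list, and the Ubx peak was the 11th widest of each. By the authors' fold enrichment, 99.8% of the other peaks in either list were lower than the abd-A and Abd-B peak, and 99.2% were lower than the Ubx peak. All bases of Ubx, abd-A, Abd-B and the interval between abd-A and Abd-B were covered in both libraries.

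The break between these blocks was the one gap site found in all 6 libraries. It lay within the noncoding RNA gene lncRNA:bxd (3R, 16742125 to 16773189), whose locus is part of the regulatory region of Ubx. The uncovered length there was 6.21 kb and 5.47 kb in wild-type males, 5.82 kb and 5.52 kb in the knockout and 6.28 kb and 5.61 kb in females. A small peak of 0.509 kb to 0.740 kb stood inside the gap in replicate 2 of each group and in knockout replicate 1, and it overlapped between wild-type male replicate 2 and knockout replicate 1, and between knockout replicate 2 and female replicate 2. The uncovered lengths of the 3 groups overlapped. The body of lncRNA:bxd was covered over 81.2% ± 1.68 (SD, n = 2) in wild-type males, 80.4% ± 1.21 in the knockout and 75.7% ± 5.81 in females. The knockout libraries overlapped both other groups in range, while the higher female library (79.80%) lay just under the lower wild-type male library (80.02%).

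Knockout males were set against wild-type males to see what the loss of roX RNAs, which the study's title links to repression on autosomes, went with in this autosomal domain. The covered share of the span was 96.1% ± 0.935 (SD, n = 2) in knockout and 98.2% ± 0.165 in wild-type males, a difference of -2.02 percentage points (exact permutation test, two-sided, p = 0.333, the smallest that 2 libraries against 2 can give). The groups did not overlap, but the gap of 1.24 points between them did not reach the 1.32 points by which the knockout replicates differed. The difference was -1.36 points without knockout replicate 2 and -1.17 points when gaps of up to 1 kb were joined. With 10 kb added on each side of the span it was -3.04 points.

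The pieces differed more than the share. Knockout males had 9.00 ± 2.83 peaks (SD, n = 2) in the span against 2.50 ± 0.707 in wild-type males (exact permutation p = 0.333), with a gap of 4.00 peaks between the groups that equalled the 4.00 between the knockout replicates. With gaps of up to 1 kb joined the difference was 3.5 pieces. The widest peak was 99.5 kb and 89.4 kb wide in knockout males, against 222.3 kb in both wild-type libraries. Here the gap between the groups, 122.8 kb, was far larger than the 10.1 kb between replicates. In the knockout the peak over Ubx was the wider one, and ranked as the 2nd and the 1st widest of its list. Wild-type males had 1 block from beyond the gap within lncRNA:bxd to the far side of Abd-B. In its place 5 peaks overlapped the span in knockout replicate 1 and 7 in replicate 2. Knockout peaks wholly past the end of Abd-B are not in these counts.

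**Figure D2:**
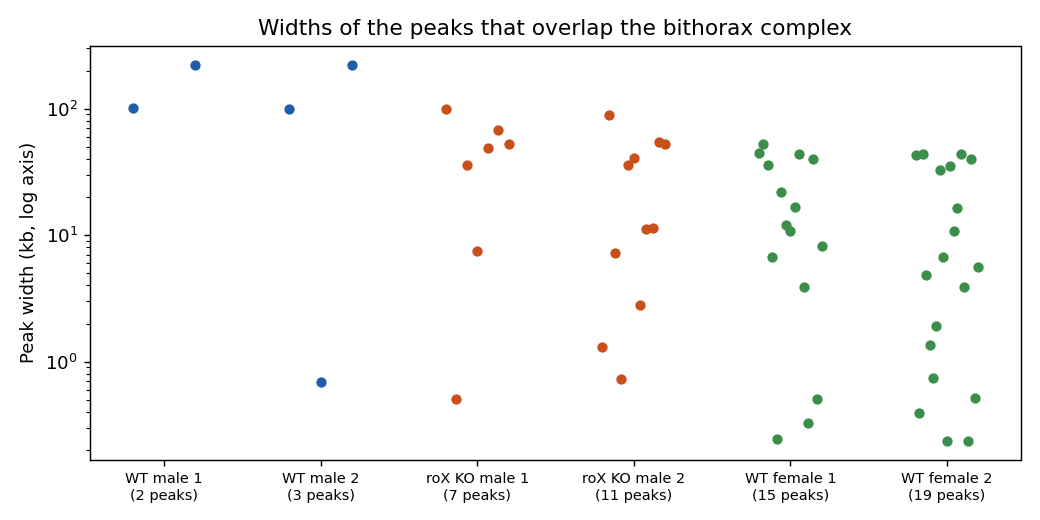
Width in kb (log axis) of each deposited peak that overlaps the bithorax complex, 1 point per peak in order along the chromosome, for the 6 libraries. Both wild-type male libraries hold a peak of 222.3 kb, the widest in the knockout libraries are 99.5 kb and 89.4 kb, and the widest in the female libraries are 52.3 kb and 44.2 kb.

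By gene body the knockout libraries stayed close to full coverage. Ubx, the gene of the third thoracic and first abdominal segments (3R, high-coordinate end at 16734426), was covered over 100% in both wild-type male libraries and over 99.8% and 98.7% in the knockout libraries, the missing bases lying at or near its low-coordinate end. abd-A, which acts in the middle abdominal segments (3R, 16807214 to 16830049), was covered over 100% in both wild-type libraries, 97.8% in knockout replicate 1 and 100% in replicate 2. Abd-B, the gene of the posterior abdomen and genitalia (3R, low-coordinate end at 16927212), was covered over 100% in all 4. Of all 341 genes that were fully covered in both wild-type male libraries, 33.4% were below 100% in both knockout libraries, as was Ubx. Of the 3 genes, only Ubx had groups that did not overlap, and among the 4987 protein-coding genes with any peak 13.7% were lower in this way and 4.99% higher. The difference was -0.77 points ± 1.28 (SE) for Ubx, -1.08 ± 1.40 for abd-A and 0 ± 1.16 for Abd-B, each with an adjusted p of 1 (limma across these 4987 genes, Benjamini-Hochberg). The abd-A value rested on knockout replicate 1: it was 0 without that library and 0 with gaps of up to 1 kb joined. Without knockout replicate 2 it was -2.16, and the Ubx value was -0.24 without replicate 2 and -1.30 without replicate 1. None of the 3 passed at an unadjusted p under 0.05 either, while an adjusted p under 0.05 called 1.38% of all tested genes lower and 0.0802% higher. At the unadjusted limit 341 of the 4987 genes were lower and 62 higher (limma). The median difference was -0.77 points over the 3 genes and 0 over all tested genes. Only 2550 of the tested genes had a peak in any male library, and the others could not differ here.

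The difference between knockout and wild-type males within the complex lay in short gaps. Stretches covered in both wild-type and in neither knockout library summed to 2.92 kb, 0.925% of the span, and no base had the opposite pattern. The longest was 1.14 kb (3R, 16856367 to 16857510), within the long noncoding RNA gene lncRNA:iab8, which crosses the interval between abd-A and Abd-B and silences abd-A in the nervous system. The next were 0.927 kb between lncRNA:bxd and abd-A (3R, 16798370 to 16799296) and 0.813 kb between lncRNA:iab8 and Abd-B (3R, 16924784 to 16925596). The microRNA genes mir-iab-4 and mir-iab-8, read from opposite strands of the same bases (3R, 16856275 to 16856342) and known to repress Hox genes, sit at the edge of the first of these gaps. They lay outside peaks in knockout replicate 1 and both female libraries, and under a peak in the other 3 libraries.

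Wild-type females were compared with wild-type males to describe the complex in the 2 sexes. The covered share of the span was 91.4% ± 0.539 (SD, n = 2) in females, a difference of -6.73 points from wild-type males. The groups lay 6.24 points apart, while replicates differed by no more than 0.762 points (exact permutation p = 0.333). The number of peaks was 17.0 ± 2.83, a difference of 14.5 with a gap of 12.0 between the groups against 4.00 between replicates. The widest peak was 52.3 kb in replicate 1 and 44.2 kb in replicate 2, a difference of -174.1 kb from wild-type males in the mean. Among lists shortened to equal total length these values were 91.8% and 91.0% of the span and 15 and 19 peaks in females, against 98.0% and 98.0% and 2 and 2 peaks in wild-type males.

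All 3 gene bodies were covered less in both female libraries than in both wild-type male libraries. Abd-B stood at 91.2% and 91.1% in the female and 100% in the male libraries, so that it fell by 8.82 points ± 1.16 (SE; limma, adjusted p = 0.0321). Without wild-type male replicate 1 or 2 its adjusted p was 0.190 and 0.174 (limma), with a difference of -8.82 in both cases, and with only these 2 groups in the fit it was 0.0965. abd-A stood at 93.3% and 93.2% in the female libraries, a difference of -6.77 points ± 1.40 (limma, adjusted p = 0.0832). Ubx stood at 96.0% and 95.0%, a difference of -4.51 points ± 1.28 (limma, adjusted p = 0.147). With gaps of up to 1 kb joined, the difference was -2.52 points for abd-A and -2.75 points for Ubx (limma, adjusted p = 0.293 and 0.282), and that of Abd-B was again -8.82 points. The female replicates of abd-A differed by 0.0350 points and those of Abd-B by 0.0733 points. In limma the SE of a gene borrows from the spread of all tested genes. Dfd, at 100% in all 6 libraries, had an SE of 1.16 as well. The SE of Abd-B was 0.0953 at −log10 q of at least 3 and 0.0286 with no filter on genes, so it hung on the genes tested. At an adjusted p under 0.05, 1.78% of the 4987 genes were called lower in females and 6.92% higher. Groups without overlap were found for 8.96% of genes in the lower and 32% in the higher direction. The balance of the calls over all genes turned with the peak filter: at −log10 q of at least 3, 153 of 918 tested genes were lower and 14 higher. The median difference was -6.77 points over the 3 Hox genes and 7.49 points over all 4987 tested genes. These medians and shares are not on equal terms. Only 2550 of the 4987 genes had a peak in any male library, and the others could only be higher in females. The 3 Hox genes, at 100% in wild-type males, could only be equal or lower.

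**Figure D3:**
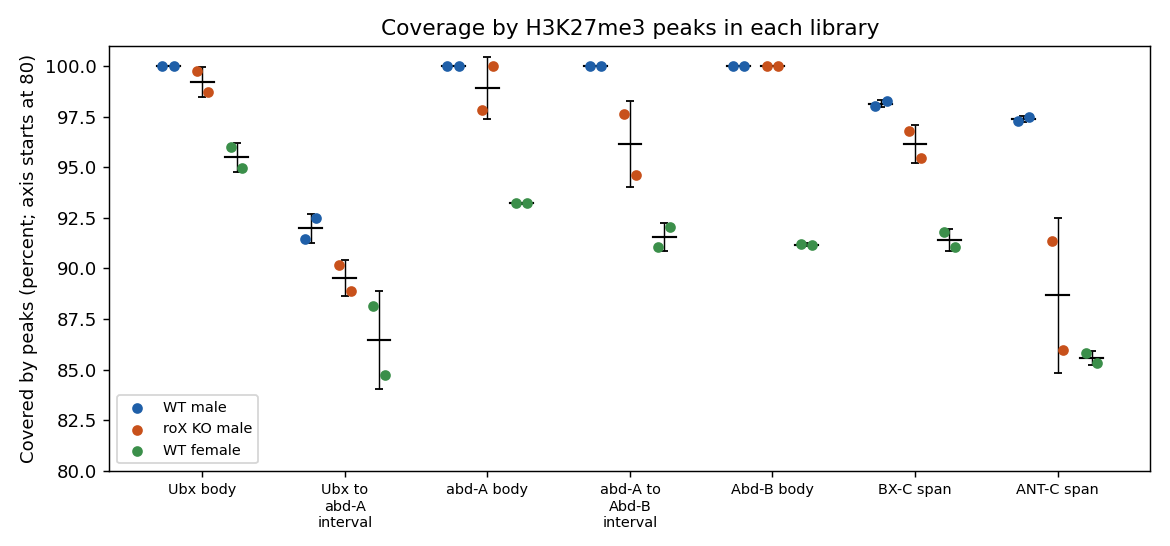
Percent of bases under peaks (axis starting at 80) in the 3 Hox gene bodies, the intervals between them, the bithorax complex span (BX-C) and the Antennapedia complex span (ANT-C). Points are libraries, bars the group mean with its SD (n = 2); female libraries are lowest in Ubx, abd-A and Abd-B, and Abd-B is at 100% in all 4 male libraries.

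A gene fully covered in wild-type males can only be covered less elsewhere, so the members were also set beside like genes. There were 51 genes with a body of at least 10 kb that were covered over 100% in both wild-type male libraries, the 3 members among them. Of all 341 fully covered genes of any length 34% were below 100% in both female libraries, and of the 51 long ones 66.7% were, and their median female coverage was 93.9%, with a lowest value of 73.1%. Below Ubx (95.5%) in females were 27 of the 51, below abd-A (93.2%) 22 and below Abd-B (91.2%) 18. In knockout males 45.1% of the 51 were below 100% in both libraries, the median was 98.0% and the lowest value was 26.8%, with 30 genes below Ubx, 28 below abd-A and 31 below Abd-B. The members thus lay in the middle of such genes in females, and far from the lowest in knockout males.

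The gaps in females fell at much the same places in both libraries. Over the 6 libraries the gaps of the span formed 21 sites, of which 14 were seen in both female libraries and 5 in 1 of them. Of 29 gap ends in female replicate 1, 26 lay within 100 bp of a gap end in female replicate 2, at a median distance of 37 bp. In the knockout, 5 sites were seen in both libraries and 5 in 1, and 3 of 13 gap ends in replicate 1 lay within 100 bp of one in replicate 2, at a median distance of 416 bp. Female gap ends were thus placed more alike between replicates than knockout gap ends. Of the 14 sites of both female libraries, 1 was the lncRNA:bxd site, and the other 13 were covered throughout by both wild-type male lists. Among the 13, 4 were gaps in both knockout libraries (at the low-coordinate end of Ubx the 2 knockout gaps lay in the same female gap but shared no base), 2 in 1 of them and 7 in neither. Of the 10 knockout sites 8 were also female sites, and these were 8 of the 19 female sites.

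**Figure D4:**
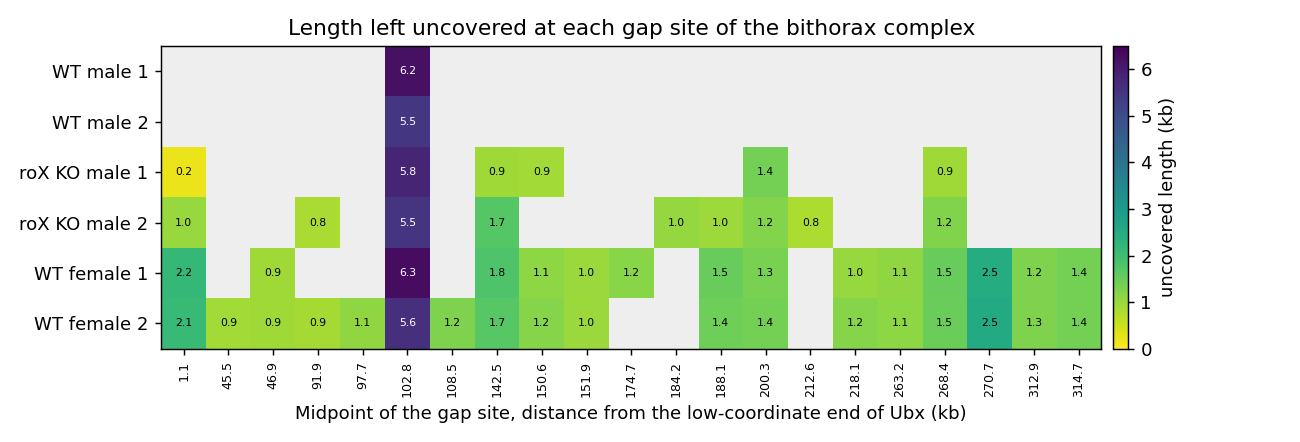
Uncovered length in kb at each of the 21 gap sites of the bithorax complex (columns, by the distance in kb of the site's midpoint from the low-coordinate end of Ubx) in each library (rows), with grey for no gap. The site at 102.8 kb is open in all 6 libraries, and the 4 sites at 1.09, 142.5, 200.3 and 268.4 kb are open in both knockout and both female libraries and closed in both wild-type male libraries, with no shared base between the knockout gaps at the first of them.

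Each Hox gene had a gap over its low-coordinate end in both female libraries. At Ubx it took the last 2.18 kb and 2.10 kb of the body, where the count stops because the span begins there. The whole gap up to the next peak outside the span was 4.13 kb and 4.00 kb long. At abd-A it took 0.572 kb and 0.580 kb of the body and 0.544 kb and 0.596 kb beyond it, and at Abd-B 1.36 kb and 1.35 kb of the body and 1.11 kb and 1.18 kb beyond it. All 3 high-coordinate ends were covered at their last base. Close to that of Abd-B (3R, 16972236), though, both female libraries had further gaps inside the body. They were 1.25 kb and 1.26 kb long at one site (3R, 16968892 to 16970155). At the next site (3R, 16970659 to 16972042) they were 1.35 kb and 1.37 kb long. Among the 51 genes covered over 100% in wild-type males, 12 (23.5%), the 3 members among them, had an uncovered low-coordinate end in both female libraries. An uncovered high-coordinate end was found for 7 (13.7%), none of them a member. Without strand, the ends of the 51 could not be sorted by direction of transcription. In the knockout no member end was uncovered in both libraries, although the low-coordinate ends of Ubx and abd-A were open in replicate 1.

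Stretches covered in both wild-type male and in neither female library summed to 18.2 kb, 5.75% of the span, with no base of the opposite pattern. The longest was 2.46 kb at the low-coordinate end of Abd-B (3R, 16926105 to 16928563), followed by 2.10 kb at that of Ubx (3R, up to 16658723). In the interval between Ubx and abd-A the longest was 1.69 kb (3R, 16798250 to 16799934), and the longest that lay wholly between abd-A and Abd-B was 1.45 kb (3R, 16924326 to 16925775). The genes Glut3, for a sugar transporter, and CG31275, both inside the span, were covered over 100% in all 6 libraries.

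Some of the female peaks between gaps were very short and yet high in their own list. Inside Abd-B, between gaps of 1.25 kb and 1.35 kb in replicate 1 and of 1.26 kb and 1.37 kb in replicate 2, stood a peak of 0.508 kb (3R, 16970151 to 16970658) and 0.516 kb (3R, 16970156 to 16970671). By the authors' fold it was the 9th highest of 8896 peaks in replicate 1 and the 9th highest of 10619 in replicate 2, and it had the highest fold of the span in both. A peak of 0.244 kb and 0.236 kb stood near the low-coordinate end of abd-A (3R, 16807786 to 16808029 in replicate 1). By fold it ranked 76th and 93rd in the 2 lists, while by width it ranked 8590th and 10325th. In male libraries the same bases were part of longer peaks, and a fold averaged over such a peak cannot be set beside these.

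Wild-type females and knockout males differed in the same direction. The covered share differed by -4.72 points, with the groups 3.67 points apart and replicates up to 1.32 points apart (exact permutation p = 0.333). The number of peaks differed by 8, with a gap of 4.00 that equalled the difference between replicates. The widest peak differed by -46.2 kb, but by only -12.6 kb once gaps of up to 1 kb were joined. Abd-B fell by 8.82 points ± 1.16 (SE) from knockout males to females (limma, adjusted p = 0.0299). That adjusted p was 0.104 and 0.0811 (limma) without knockout replicate 1 or 2, at an unchanged difference, and 0.153 with only these 2 groups in the fit. abd-A differed by -5.69 points ± 1.40 (limma, adjusted p = 0.113) and Ubx by -3.75 points ± 1.28 (limma, adjusted p = 0.204). With gaps of up to 1 kb joined these differences were -2.52 and -1.98 points (limma, adjusted p = 0.294 and 0.398). Of all tested genes 0.822% were called lower and 8.4% higher. Without overlap of the groups 4.19% were lower, as all 3 members were, and 34.9% higher. Tested genes with peaks in female libraries alone could only be higher here too. Of 161 genes at 100% in both knockout libraries 15.5% were below 100% in both female libraries, and of the 20 with a body of at least 10 kb, Abd-B among them, 40% were. The comparisons share libraries, and their values are given side by side and not as separate evidence.

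The outer borders of the domain differed between the groups, mainly on the side of Abd-B. There the last peak that overlapped the span ended 12.6 kb and 12.5 kb past the end of Abd-B in wild-type males. It ended 5.55 kb and 5.54 kb past it in the knockout and 7.92 kb and 5.45 kb past it in females, so these groups overlapped. With gaps of up to 1 kb joined these distances were 14597 bp and 12543 bp in wild-type males. They were then 5554 bp and 7899 bp in the knockout and 7924 bp and 7915 bp in females. Before joining, the next peak outward lay 0.964 kb and 1.158 kb away in wild-type males. It lay 1.012 kb and 0.855 kb away in the knockout and 2.176 kb and 0.909 kb away in females. Knockout replicate 1 was thus just over the 1 kb limit for joining. VhaM9.7-d, the next gene (3R, 16975204 to 16975697), which encodes a subunit of the vacuolar proton pump, was covered over 100% in all 6 libraries. AhcyL2 (3R, 16978439 to 16982158), named here after its values were seen, was covered over 100% in both wild-type male, 56.8% and 40.4% in knockout and 46.3% and 41.7% in female libraries. At Ubx, counting from the low-coordinate end with positions inside the gene positive, the first peak began at -1037 bp and -229 bp in wild-type males. It began at 187 bp and -180 bp in knockout males and at 2176 bp and 2101 bp in females. In knockout replicate 2 that first peak was only 1.315 kb wide. The wide Ubx peak of that library began at 2.143 kb, close to the female starts.

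The 50 kb on either side of the span still hold the ends of the domain, among them the 12.6 kb and 12.5 kb past Abd-B in wild-type males. In the 50 kb beside Ubx, where the next gene is modSP (3R, 16652446 to 16655662), a serine protease gene of the Toll immune pathway, peaks covered 29.3% ± 5.51 (SD, n = 2) in wild-type males, 11.0% ± 8.79 in the knockout and 32.1% ± 0.594 in females. In the 50 kb beside Abd-B they covered 28.9% ± 1.52, 16.4% ± 1.38 and 22.1% ± 1.75. The span itself thus stood between 91.0% and 98.3% in libraries whose flanks, domain ends included, stood between 4.77% and 33.2%.

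The Antennapedia complex is the other Hox cluster of the fly, and its genes lab, pb, Dfd, Scr and Antp pattern the head and the anterior thorax. Its span from lab to Antp, 337.8 kb on the same arm, was covered over 97.4% ± 0.157 (SD, n = 2) in wild-type males, 88.7% ± 3.84 in the knockout and 85.6% ± 0.339 in females. Within each library the bithorax complex exceeded it by 0.751 points ± 0.00854 in wild-type males, 7.47 ± 2.90 in the knockout and 5.85 ± 0.199 in females. The difference between knockout and wild-type males in this quantity was 6.72 points, with a gap of 4.66 between the groups against 4.10 between replicates (exact permutation p = 0.333). It was 20.6 points once peaks with −log10 q under 3 were left out, where knockout replicate 2 stood at 34.1 points, and 4.50 points with the mean of the gene bodies in place of the spans. Between females and wild-type males the difference was 5.10 points, with a gap of 4.96 against 0.282 between replicates. It was 12.0 points without the peaks under that q limit, 3.18 points with gaps of up to 1 kb joined and 1.31 points with the mean of gene bodies. Between females and knockout males it was -1.62 points, the groups overlapped, and without knockout replicate 2 it was 0.436 points. It was -3.67 points without knockout replicate 1 and -8.62 points at −log10 q of at least 3. With gaps of up to 1 kb joined it was -3.35 points and with gene bodies -3.18 points, and in both of these the groups did not overlap (exact permutation p = 0.333).

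The single genes of the Antennapedia complex spread more widely than those of the bithorax complex. Dfd, the gene of the maxillary and mandibular segments, was covered over 100% in all 6 libraries. Antp, which acts in the thorax, stood at 100% in both wild-type male, 91.1% and 90.3% in knockout and 88.8% and 89.1% in female libraries. Of these 5 Hox genes, 0 were called in knockout against wild-type males (limma; 1 had an unadjusted p under 0.05) and 1, Antp, in females against wild-type males, where it fell by 11.0 points (limma, adjusted p = 0.0219). The shares called lower over all 4987 genes were 1.38% and 1.78%. At an unadjusted p under 0.05 (limma) 341 of them were lower and 62 higher in knockout against wild-type males. In females 221 were lower and 950 higher against wild-type males, and 97 and 1066 against knockout males. The median difference of the 5 Hox genes was -4.85 points in knockout and -7.68 points in females against wild-type males. The other 4 genes there, ftz, zen, zen2 and bcd, lay between 99.0% and 100% in every library, and 0 were called in any comparison (limma, 0 at an unadjusted p under 0.05 in each).

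Genes that act with the bithorax genes or on them were counted from lists. Of the 8 early regulators that set where the Hox genes start to be expressed (hb, Kr, kni, gt, tll, eve, run and cad), 0 were called in any comparison (limma). At an unadjusted p under 0.05 there were 2 in knockout against wild-type males, 1 in females against wild-type males and 1 in females against knockout males. Over all 4987 tested genes 341 were lower and 62 higher at that limit in the first of these comparisons. In the second 221 were lower and 950 higher, and in the third 97 and 1066. Of the 3 Hox cofactors and trunk genes listed, exd had no peak in any library and was not tested. hth, whose product helps to carry the exd product into the nucleus, stood at 91.7% and 92.1% in wild-type male, 40.4% and 32.8% in knockout and 60.6% and 58.9% in female libraries. It fell by 55.3 points in knockout (limma, adjusted p = 0.0128) and by 32.1 points in female (limma, adjusted p = 0.0169) against wild-type males. From knockout males to females hth rose by 23.2 points (limma, adjusted p = 0.0310). tsh, a trunk identity gene, stood at 100% in both wild-type male and 53.5% and 17.1% in knockout libraries (limma, adjusted p = 0.236). In the female libraries tsh stood at 60.5% and 58.2% (limma, adjusted p = 0.191 against wild-type males). Of the 8 genes known to be regulated by Hox proteins of this complex (Dll, salm, wg, dpp, bab1, bab2, kn and vg), 1 was called lower in knockout males, where 1.38% of all tested genes were. This was bab2, which fell by 31.7 points (limma, adjusted p = 0.0215). In females against wild-type males salm, bab2 and vg were called lower, 3 of the 8, beside 1.78% of all tested genes. In females against knockout males vg fell by 18.3 points (limma, adjusted p = 0.0333) and bab2 rose by 17.2 points (limma, adjusted p = 0.0256), beside 0.822% and 8.4% of all tested genes. At an unadjusted p under 0.05 (limma) 5 of these 8 genes passed in knockout against wild-type males and 4 in females against wild-type males. In females against knockout males 5 passed. The counts over all tested genes at that limit are those given above for the early regulators. wg was covered over 100% in all 6 libraries.

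The genes with a body of at least 10 kb outside the complex whose values were most like those of each member were found by the root mean square difference in covered percent over the 6 libraries, among 1969 genes. For Ubx they were sens-2 (0.650 points), Sox21b (1.02 points) and Dll (1.09 points). For abd-A they were Dll (0.965 points), H15 (1.57 points) and ss (1.60 points), and for Abd-B they were H15 (0.185 points), Dll (1.58 points) and nub (1.96 points). All of these are genes for transcription factors. H15, a T-box gene, was covered over 100% in all 4 male libraries and over 91.3% and 90.7% in the female libraries, beside 91.2% and 91.1% for Abd-B.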

How the data were processed

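The files were 6 deposited broad peak lists, 1 per immunoprecipitated library, so replicates were not pooled; the 3 input samples were not used here. Ground larvae were fixed with formaldehyde before sonication, per the labels' protocols. Tools listed are deepTools 3.5.1, Picard, SAMtools 1.13, Bowtie2 2.4.5 and Trimmomatic 0.39, with dm6 as build, per the submitters' processing notes. The sources used here name no peak caller and do not say how inputs entered. The authors deposited for each peak a display score, a fold enrichment (a ratio), a −log10 p and a −log10 q, the last at least 1 in every list. They served here only for ranks and filters inside 1 list. The shortest gap between neighbouring peaks was 781 bp to 920 bp in the 6 lists, so shorter dips cannot be seen.

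Covered bases were counted against the gene table of assembly Release 6, the coordinates of dm6. A gap is a run of bases of the span outside all peaks of a library, and gaps of different libraries that overlap form a site. Values per library were compared by two-sided exact permutation of the 4 libraries of each comparison. The covered percent of gene bodies was tested with limma 3.58.1 in R 4.3.3 on all 6 libraries, over the 4987 protein-coding genes with a peak in any, with Benjamini-Hochberg adjustment; the gene test was run on simulated data beforehand. The lists were ANT-C Hox genes, other ANT-C genes, early regulators, cofactors and regulated genes. Genes named are members, genes in or beside the span, list genes and, per member, the 3 genes of most like values. The members' rule reads no values, but this gene set, the lists and the tests were chosen with earlier results of these data known. Replicate numbers are shared by the groups, but deviations of same-numbered libraries correlated at -0.0347 to 0.0198 over genes (2 numbers), so they were not treated as pairs. Alternatives were stricter peak filters, joined gaps, equal list lengths, other gene filters and scales, a replicate block, other span limits and each replicate left out.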

Additional observations from a re-analysis of the deposited data

How the results depend on the processing

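With 2 libraries a group and depth unknown, no single value could pass a permutation test, and a break shorter than the shortest gap of a list cannot be seen. Of 297 alternative values over 27 results, 237 were counted as unchanged, 44 moved, 8 lost and 7 gained a call, and 1 reversed. For the span measures, which had no call to keep, unchanged means only that the direction did not reverse. For a single gene it also means that no call was gained or lost, and Ubx and abd-A had none in the reported fit. Among these was abd-A in knockout against wild-type males, at 0 in 2 alternatives. The 44 that moved were all counts of genes. For a reported count of 69, a count of 103 was taken as unchanged and 104 as moved. The causes were not tested. The reversed one was the difference between females and knockout males in bithorax minus Antennapedia coverage, which ran from -3.67 to 0.436 points when 1 replicate was left out, the latter without knockout replicate 2.

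Abd-B, at -8.82 points in females against wild-type males and against knockout males, lost its call with only the 2 groups compared (limma, adjusted p = 0.0965 and 0.153). With the replicate block, -8.82 points in both, adjusted p was 0.142 and 0.135 (limma). Whether libraries of the same number shared a batch is not known, and the low correlations between them cannot settle it. With 1 replicate left out its values ran from -8.86 to -8.78, without a call where a male library of the comparison was left out. Ubx gained a call in females against wild-type males on the arcsine scale (-0.21 radians) and without either female replicate (-5.03 to -4.00 points), and against knockout males without female replicate 1 (-4.27 to -3.22 over all replicates left out). With a female replicate left out the lone female library is assumed to vary like the male libraries, which lie near 100%, and the SE of Ubx was 0.609 and 0.605 in place of 1.28. abd-A gained one with peaks of −log10 q of at least 3 (-6.77 against wild-type and -5.69 against knockout males) and, against wild-type males, without female replicate 1 (-6.78 to -6.75).

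Counts of genes called depended on the fit and on how many genes were tested: 4987 in the reported fit, with the block and on the arcsine scale, 918 at −log10 q of at least 3, 3029 with equal lengths, 13911 with no filter and 2020 with a mean of at least 10%. With only the 2 groups they were 2550, 4843 and 4871 in the order of comparisons below, and with 1 replicate left out 3959 to 4949. In knockout against wild-type males 69 were lower, but 168 at −log10 q of at least 3, 38 with no filter on genes and 22 with the replicate block, and 4 were higher, but 13 at that q, 28 with lists of equal length, 11 with only the 2 groups, 9 on the arcsine scale and 2 with the block. In females against wild-type males 89 were lower, but 153 at that q, 54 with equal lengths, 56 with only the 2 groups, 134 on the arcsine scale, 57 with no filter and 20 with the block. There 345 were higher, but 14, 96, 137 and 741 under the first 4 of these, 211 among genes with a mean of at least 10% and 84 with the block. In females against knockout males 41 were lower, but 7 with only the 2 groups and 7 with the block, and 419 were higher, but 47 at that q, 138 with equal lengths, 150 with only the 2 groups, 813 on the arcsine scale and 154 with the block. With each replicate left out in turn the counts ran from 59 to 104 and 4 to 96 (knockout against wild-type males, lower and higher), 48 to 149 and 65 to 2220 (females against wild-type males) and 59 to 111 and 210 to 2292 (females against knockout males). The most higher calls came without female replicate 1 in both female comparisons and without knockout replicate 2 in the knockout comparison.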
